A study of Mus musculus with 10 samples.

Results

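Liver zonation gene loci are the genomic surroundings of 6 genes whose expression differs along the axis of the liver lobule. Each locus was a window on the mouse build mm9, and every deposited peak that overlapped a window was taken. The pericentral windows were Glul (chr1:155720000-155780000), Cyp2e1 (chr7:147930000-147980000) and Cyp1a2 (chr9:57500000-57570000). The periportal windows were Cps1 (chr1:67150000-67290000), Ass1 (chr2:31310000-31390000) and Arg1 (chr10:24610000-24670000). They held 400 of the 344928 peaks in the 9 lists, 201 in pericentral and 199 in periportal windows. Histone marks of normal mouse liver were profiled by immunoprecipitating chromatin and sequencing its DNA, to find tissue preparation conditions that work in formalin-fixed, paraffin-embedded (FFPE) blocks. One library came from fresh frozen liver that was crosslinked, lysed, sonicated and precipitated for H3K27Ac. FFPE sections were homogenized by heat in detergent buffer overnight and sonicated, the FiTAc-seq protocol, always for H3K27Ac. The conditions, written as heating temperature and sonication time, were 50 °C/5 min, 50 °C/40 min, 65 °C/5 min (2 libraries), 65 °C/40 min and 80 °C/40 min. FFPE sections were also homogenized with proteinase K, the FiT-seq protocol, giving 1 H3K27Ac and 1 H3K4me2 library. All libraries came from full sections, a pair of library kits is named without saying which library used which, and the labels gave no strain, sex, age or number of animals. Nothing stated whether the 65 °C/5 min pair came from separate animals or blocks, so its spread may be technical.

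The liver lobule is supplied with blood at the portal tracts and drained at the central vein, and hepatocytes along this path carry out different tasks. Wnt and β-catenin signalling maintains the pericentral programme of glutamine synthesis and drug metabolism, and hepatocytes near the portal tract make most of the urea. Glul encodes glutamine synthetase, which captures ammonia in the hepatocytes next to the central vein. Cyp2e1 and Cyp1a2 encode cytochrome P450 enzymes that oxidize ethanol and small solvents, and caffeine and aromatic amines. Cps1 encodes carbamoyl phosphate synthetase, the mitochondrial entry step of the urea cycle. Ass1 encodes argininosuccinate synthase and Arg1 encodes arginase, which releases urea. H3K27Ac, acetylation of a lysine in the tail of histone H3, marks active promoters and enhancers, and H3K4me2 marks promoters and enhancers more broadly. Each window was named for the gene it was drawn around, and it can hold neighbours. In the RefSeq gene order of GRCm38.p6, Cyp1a1 is the next protein-coding gene after Cyp1a2, and Csk lies on its other side. The neighbours are Teddm1a and Zfp648 for Glul, Olfr541 and Syce1 for Cyp2e1, and Lancl1 and Erbb4 for Cps1. They are Hmcn2 and Fubp3 for Ass1, and Med23 and Akap7 for Arg1. Which of these or further genes reach into the windows was not examined. An mm9 annotation was not used here, so no peak was assigned to a promoter, exon or intron. Sections mix hepatocytes of every zone with other cell types. A mark on fewer cells and a weaker mark in each cell cannot be told apart.

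Promoter sequences were available for 4 of the 6 genes and are shown to set the starts of the loci side by side. They are RefSeq sequences of GRCm38.p6, from 250 bases before to 50 bases from each gene's start, 5′ to 3′ on the gene's strand. Their coordinates are those of GRCm38.p6 and cannot be set against the mm9 peaks. Capitals mark, on either strand, the TATA box letters TATAAA, the CCAAT box, the GC box letters GGGCGG and the TCF/LEF core letters CTTTGAN. These motifs were chosen after the sequences were seen. The intervals are Glul chr1:153899679-153899978 on the plus strand, Cyp2e1 chr7:140763569-140763868 on the plus strand, Cyp1a2 chr9:57683606-57683905 on the minus strand, and Ass1 chr2:31470020-31470319 on the plus strand.
Glul: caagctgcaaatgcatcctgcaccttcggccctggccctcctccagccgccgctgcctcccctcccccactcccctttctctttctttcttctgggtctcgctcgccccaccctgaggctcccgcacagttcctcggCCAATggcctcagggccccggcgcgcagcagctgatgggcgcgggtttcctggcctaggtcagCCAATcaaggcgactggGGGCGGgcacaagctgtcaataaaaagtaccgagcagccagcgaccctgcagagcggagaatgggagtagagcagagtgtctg
Cyp2e1: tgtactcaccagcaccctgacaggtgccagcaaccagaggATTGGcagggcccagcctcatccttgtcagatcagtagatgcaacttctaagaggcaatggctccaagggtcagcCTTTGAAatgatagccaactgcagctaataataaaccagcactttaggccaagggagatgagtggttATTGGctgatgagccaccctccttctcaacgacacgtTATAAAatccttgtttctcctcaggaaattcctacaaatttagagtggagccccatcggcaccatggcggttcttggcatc
Cyp1a2: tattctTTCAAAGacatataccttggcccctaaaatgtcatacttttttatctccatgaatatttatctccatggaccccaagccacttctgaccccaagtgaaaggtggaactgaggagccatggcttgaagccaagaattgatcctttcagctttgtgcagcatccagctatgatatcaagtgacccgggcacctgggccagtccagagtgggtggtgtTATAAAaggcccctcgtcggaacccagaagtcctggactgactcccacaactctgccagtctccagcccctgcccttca
Ass1: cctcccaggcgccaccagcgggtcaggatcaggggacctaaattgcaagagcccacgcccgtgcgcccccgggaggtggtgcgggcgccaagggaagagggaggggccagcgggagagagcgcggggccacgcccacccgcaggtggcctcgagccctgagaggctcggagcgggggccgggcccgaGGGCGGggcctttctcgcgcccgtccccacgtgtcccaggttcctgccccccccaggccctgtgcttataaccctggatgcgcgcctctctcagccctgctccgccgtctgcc

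The Glul and Ass1 promoters had a GC content of 64.3% and 74.0%, above the median of 52.7% over all 32851 promoters in the table. Cyp2e1 and Cyp1a2 were both at 49.7%. TATAAA lay 31 bases before the Cyp2e1 start and 29 before the Cyp1a2 start, and the letters are in 13.6% of all promoters. GGGCGG lay 33 bases before the Glul start and 63 before the Ass1 start, against 35.7% of all promoters. CCAAT was found in Glul and Cyp2e1, with 37.4% of all promoters holding it. CTTTGAN was found in Cyp2e1 and Cyp1a2, and in 15.96% of all promoters. GCGTG, the core letters bound by the aryl hydrocarbon receptor, was also searched and is not capitalised. It was found at a pair of places in Ass1 and in 32.4% of all promoters. These matches describe letters only.

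Fresh frozen liver had H3K27Ac peaks in all 6 windows, 49 of its 48239. Cps1 had 13, Cyp1a2 9, Cyp2e1 and Arg1 8 each, Ass1 7 and Glul 4. They were 146 to 1308 bp wide with a median of 338 bp, close to the 345 bp over the whole list. Each peak carries the authors' score, taken here as the −log10 of its q-value and used to describe, rank and filter peaks within a list. Scores of different lists are given side by side without a comparison, since they move with depth. Its median was 8.59 in the windows and 9.79 over the list. The long FiTAc-seq lists held 36 window peaks at 50 °C/5 min, 87 at 50 °C/40 min, and 92 at 65 °C/40 min. The pair at 65 °C/5 min held 74 and 61. The lists at 80 °C (65 peaks in all) and of FiT-seq H3K27Ac (115 peaks) had 0 peaks in the windows. They met 0.112% and 0.0829% of all fresh frozen peaks, so neither list has the number of peaks to describe these genes. Read depth is unknown, and the absence of a peak says only that none was listed.

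**Figure D1:**
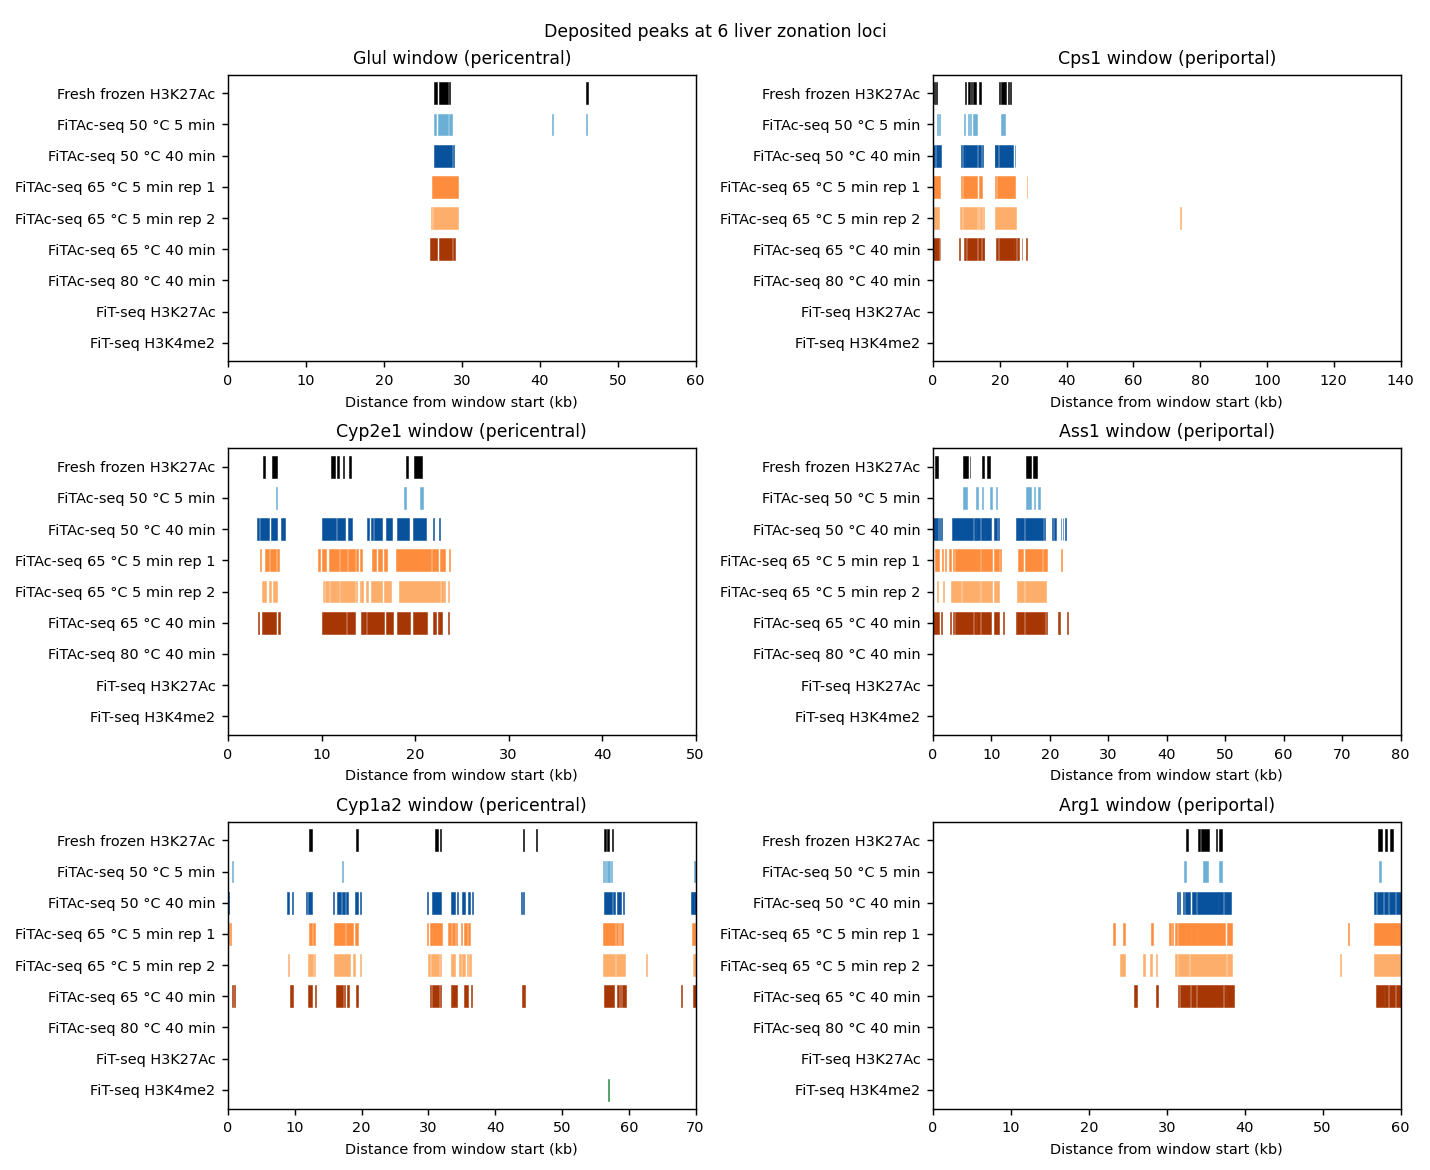
Peaks of each list (rows) along the 6 windows, with the distance from the window start in kb on the x axis. Bars are drawn to scale with a thin outline, and those that cross a window edge end at it. Peaks recur at the same places in fresh frozen and the long FiTAc-seq lists, the lower 3 rows hold a single H3K4me2 peak, and the latter parts of the Cps1 and Ass1 windows are nearly empty.

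At Glul, H3K27Ac was concentrated in 1 site of 3518 bp, chr1:155745970-155749487, found in fresh frozen liver and in all 5 long FiTAc-seq lists. A site here is the union of overlapping peaks over these 6 lists. Fresh frozen liver had 3 peaks in it, the highest being chr1:155747127-155748223 with a −log10 q-value of 27.4 and rank 7430. At 50 °C the highest peak ranked 2132 of 38409 after 5 min and 5327 of 65332 after 40 min. In the 65 °C/5 min pair it ranked 3644 of 60244 and 3846 of 56632, and at 65 °C/40 min 7900 of 64146. A 306 bp fresh frozen peak apart from this site, chr1:155765905-155766210, was met only at 50 °C/5 min. No H3K27Ac peak of these 6 lists lay in the first 26.0 kb of the window. Glul was the only locus with a leading peak in the same site in every one of the 6 lists.

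At Cyp2e1, the leading site differed between fresh frozen and FFPE tissue. The highest fresh frozen peak was chr7:147934655-147935250, with a value of 13.6 and rank 17667, the lowest leading value of the 6 loci in that list. All 5 long FiTAc-seq lists had their highest peak in another site, chr7:147947996-147953194, where the fresh frozen values reached 7.59 and rank 30288. There the FFPE value was 8.13 at 50 °C/5 min and 27.9 at 50 °C/40 min. It was 58.4 and 46.2 in the 65 °C/5 min pair, with ranks of 2217 and 2338, and 57.2 at 65 °C/40 min, with rank 2209. A further site, chr7:147940015-147943608, had 4 fresh frozen peaks and was found in every long FiTAc-seq list except that of 50 °C/5 min. The last 26.3 kb of the window had no H3K27Ac peak in the 6 lists.

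At Cyp1a2, peaks were scattered over 26 sites, the largest number of the 6 windows, of which 2 were in all 6 lists. The highest fresh frozen peak of all 6 windows lay in this window, chr9:57556317-57556638, 322 bp wide with a value of 54.8 and rank 1451. Without an mm9 annotation it was not assigned to Cyp1a2 or to another gene, so it may belong to a neighbour. The site around it, chr9:57556128-57557971, held 3 fresh frozen peaks, 4 peaks at 50 °C/5 min, and a single peak of 1797 and 1706 bp in the 65 °C/5 min libraries. Its highest value was 6.59 at 50 °C/5 min and 64.2 at 50 °C/40 min. It was 53.3 and 39.8 in the pair and 58.5 at 65 °C/40 min. At 50 °C/5 min the leading peak was instead chr9:57569689-57571185, which runs over the window's end. Cyp1a2 also held the only fresh frozen peak of the 6 windows met by no long FiTAc-seq list, chr9:57546045-57546190, 146 bp wide with a value of 3.29. The site chr9:57515645-57518729 was in all 5 long FiTAc-seq lists and had no fresh frozen peak. Its highest values ran from 6.52 at 50 °C/5 min to 17.2 at 65 °C/40 min.

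At Cps1, every peak of the 6 lists but 1 lay in the first 30 kb of the 140 kb window. The exception was a 193 bp peak of the second 65 °C/5 min library that ended 74.3 kb from the window's start, with a value of 2.14. Fresh frozen liver had its highest peak at chr1:67150236-67150598, with a value of 35.0 and rank 4903. It belonged to a site that crosses the window's start, chr1:67148415-67152395, which also held the highest peak at 50 °C after 5 and after 40 min. In the 3 lists of 65 °C, the highest peak lay in the widest site of the 6 windows, chr1:67168519-67174840, of 6322 bp. There the pair had peaks of 5492 and 6161 bp with values of 90.4 and 73.5 and ranks of 495 and 479. The 65 °C/40 min list had rank 1137 there and the 50 °C/40 min list 8643. Fresh frozen liver had 5 peaks in this site, the highest with rank 17833 and a value of 13.4.

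At Ass1, the sites chr2:31312746-31318117 and chr2:31325691-31329479 ranked high in most lists. The first had a fresh frozen value of 47.8, with rank 2301, and the second 37.5, with rank 4261. In FFPE tissue the first had rank 83 at 50 °C/40 min, 387 and 308 in the 65 °C/5 min pair, and 163 at 65 °C/40 min. These were the highest window peaks in each of those 4 lists, with values of 110.3, 96.0, 80.6 and 104.3. The second had ranks of 437, 543, 749 and 558 in the same order. At 50 °C/5 min the order of the sites was turned, with a value of 12.4 at the second and 9.59 at the first. The site chr2:31320384-31321311 was in all 5 long FiTAc-seq lists and had no fresh frozen peak, with a highest value of 30.5 at 65 °C/40 min. The last 57.0 kb of the window had no H3K27Ac peak in the 6 lists.

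At Arg1, H3K27Ac was gathered in a pair of broad sites, chr10:24641404-24647602 and chr10:24666594-24672782, both in all 6 lists. All 5 long FiTAc-seq lists had their highest window peak in the first, which held 5 fresh frozen peaks. Its highest value was 6.23 at 50 °C/5 min, 56.2 at 50 °C/40 min, 83.1 and 65.0 in the pair, and 89.2 at 65 °C/40 min. Fresh frozen liver reached 16.4 there and had its highest window peak, chr10:24668601-24669040 with 17.4, in the second site. These fresh frozen values differ little, and with 1 library they have no replicate check. The second site runs past the window's end, where its fresh frozen value reached 20.6. The first 23.1 kb of the window had no H3K27Ac peak in the 6 lists.

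FiTAc-seq peaks covered far more of the windows than fresh frozen peaks in every long list except that of 50 °C/5 min. Covered length summed over the 6 windows was 20.2 kb in fresh frozen liver, 13.0 kb at 50 °C/5 min and 58.1 kb at 50 °C/40 min. It was 64.6 ± 0.428 kb (SD, n = 2) at 65 °C/5 min, from 64.3 and 64.9 kb, and 63.9 kb at 65 °C/40 min. The mean of the pair was 3.20 times the fresh frozen length, against 2.06 times over the whole lists. Over the whole lists the lengths were 42.2 and 20.5 Mb. Median window values were 8.99 and 8.54 in the pair and 8.59 in fresh frozen liver. Per locus the ratio was 1.75 at Glul, 2.33 at Cps1, 3.49 at Ass1, 3.56 at Arg1, 3.96 at Cyp2e1 and 4.68 at Cyp1a2. After joining peaks of a list at most 500 bp apart, these ratios were 1.46, 1.95, 3.36, 2.89, 3.55 and 4.26. Glul therefore had the lowest ratio and Cyp1a2 the highest in both settings. Differences in peak calling between fresh frozen and FFPE lists cannot be told apart from tissue in these lengths.

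**Figure D2:**
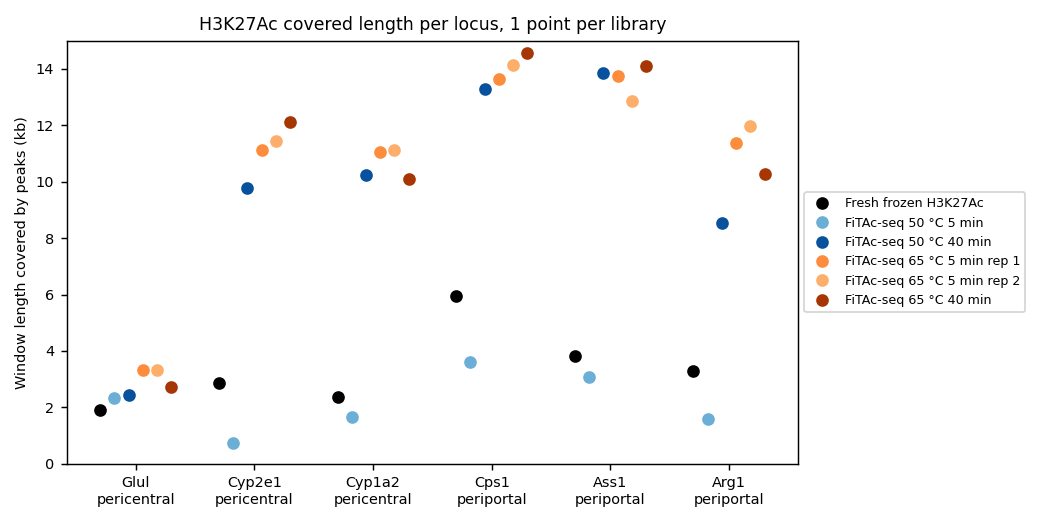
Length of each window covered by H3K27Ac peaks, in kb on the y axis, with 1 point for each library and the 6 loci on the x axis. In 5 loci fresh frozen liver and 50 °C/5 min lie below 6 kb and the other 4 libraries above 8 kb, while at Glul all libraries lie between 1.90 and 3.33 kb.

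Wider single peaks went with this coverage. None of the 49 fresh frozen window peaks exceeded 2 kb, against 0.0456% of the whole list. In the pair, 10 of 74 and 11 of 61 did, or 13.5% and 18.0%, where the whole lists had 8.20% and 7.65%. At 40 min, 6 of 87 exceeded 2 kb at 50 °C and 8 of 92 at 65 °C, or 6.90% and 8.70%, with 3.61% and 3.48% over the lists. None of 36 did at 50 °C/5 min, with 1.60% over the list. The widest were at Arg1, 6189 bp, and Cps1, 6161 bp, both in the second 65 °C/5 min library. Widths are those of whole peaks, while covered length stops at the window's edge, and this Arg1 peak runs past it. Up to 5 fresh frozen peaks fell in 1 FiTAc-seq peak.

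The order of the loci by covered length was partly shared between tissues. At 65 °C/5 min, Cps1 had 13.9 ± 0.344 kb (SD, n = 2), Ass1 13.3 ± 0.615 kb and Arg1 11.7 ± 0.416 kb. Cyp2e1 had 11.3 ± 0.226 kb, Cyp1a2 11.1 ± 0.0679 kb and Glul 3.32 ± 0.0106 kb. The steps from Cps1 to Ass1, from Arg1 to Cyp2e1 and from Cyp2e1 to Cyp1a2 were smaller than the larger SD of the loci compared. The steps from Ass1 to Arg1 (1.63 kb) and from Cyp1a2 to Glul (7.77 kb) exceeded it. Fresh frozen liver had 5.96 kb at Cps1, 3.82 kb at Ass1, 3.28 kb at Arg1, 2.85 kb at Cyp2e1, 2.37 kb at Cyp1a2 and 1.90 kb at Glul, the same order. At 50 °C/5 min Cyp2e1 was lowest with 0.741 kb, and Glul followed Cps1 and Ass1 with 2.34 kb. In both lists of 40 min Glul was lowest, and Cyp2e1 stood above Arg1, by 1.25 kb at 50 °C and 1.87 kb at 65 °C. Both steps exceeded the SD of 0.416 kb. Window lengths differ, from 50 to 140 kb, and as a share of the window Cyp2e1 was highest in fresh frozen liver (5.70%) and in the pair (22.3% and 22.9%).

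Most equal stretches of the genome had less H3K27Ac coverage than these windows. Chromosomes were divided into stretches as long as each window, from the first to the last stretch with a peak. In fresh frozen liver, 8.64% of stretches were covered at least as much as Glul, 7.50% as Cyp1a2, 3.19% as Ass1, 3.15% as Cps1, 2.75% as Arg1 and 2.74% as Cyp2e1. In the first and second 65 °C/5 min libraries the shares were 10.1% and 9.19% for Glul, and 1.19% and 0.918% for Cyp2e1. They were 2.23% and 1.83% for Cyp1a2, 4.51% and 3.49% for Cps1, 1.67% and 1.61% for Ass1, and 1.64% and 1.22% for Arg1. The median stretch had no coverage for any window length. The windows were drawn around liver genes, with earlier results of these data known, and the stretches were not picked by gene. The shares therefore cannot tell zonation loci from other liver gene loci. They describe the lists and carry no test.

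Pericentral and periportal windows did not differ in one direction across the lists. Per kb of window, fresh frozen peaks covered 39.5 bp in the pericentral and 46.6 bp in the periportal windows. The values were 26.4 and 29.4 bp at 50 °C/5 min, 124.5 and 127.3 bp at 50 °C/40 min, and 138.6 and 139.0 bp at 65 °C/40 min. At 65 °C/5 min they were 142.8 and 138.8 bp, with an SD of 1.05 bp for the difference of 3.96 bp in the pair. The sign of the difference changed in at least 1 other setting in each of these FiTAc-seq conditions. In fresh frozen liver, with 1 library, pericentral minus periportal was negative in the other settings too, from -0.29 to -13.8 bp per kb. Per kb values also depend on window length, and nearly all Cps1 peaks lay in the first 30 kb of its 140 kb. As mean covered kb per locus, the pericentral windows, which are shorter in sum, were lower in fresh frozen liver and in each of these FiTAc-seq conditions. Within the pericentral group, Glul (5.54% and 5.52% of its window in the pair) and Cyp2e1 (22.3% and 22.9%) lay further apart than any periportal loci did (9.74% to 19.96%).

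Nearly all fresh frozen window peaks were met in 4 of the 5 long FiTAc-seq lists, the exception being 50 °C/5 min. None was met by the 80 °C/40 min or FiT-seq H3K27Ac list. At 65 °C/5 min, 46 and 45 of the 49 were met by a peak of the library, or 92.9% ± 1.44 (SD, n = 2), where 73.0% and 70.2% of all fresh frozen peaks were met. At 50 °C/40 min 47 were met, or 95.9% (Wilson 95% interval 86.3 to 98.9), against 73.2% of all. At 65 °C/40 min 47 were also met, against 72.0% of all. At 50 °C/5 min 23 were met, or 46.9% (33.7 to 60.6), close to the 43.7% over all fresh frozen peaks. These intervals cover counting error only, and neighbouring peaks met by 1 broad FFPE peak are not independent.

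**Figure D3:**
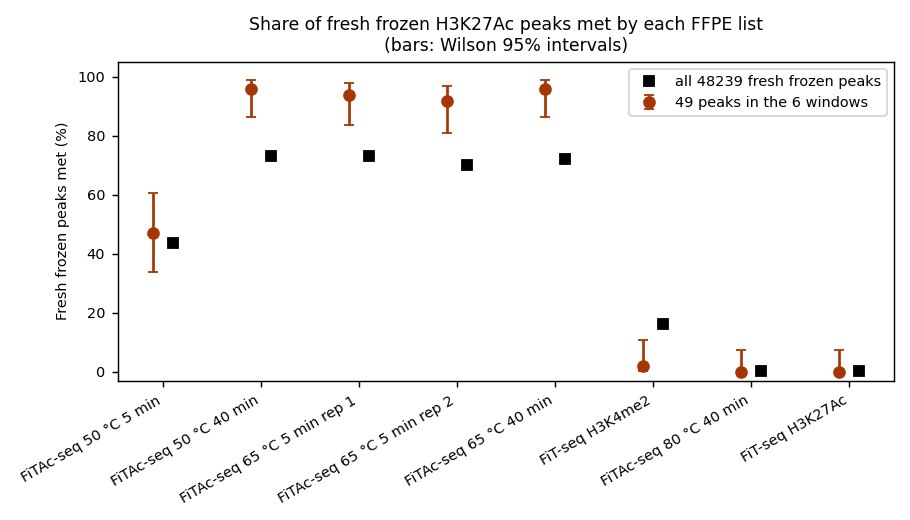
Share of fresh frozen H3K27Ac peaks met by at least 1 bp of each FFPE list, in percent, for the 49 window peaks (circles, with Wilson 95% intervals) and for all 48239 (squares). The circles stand above the squares for 50 °C/40 min, 65 °C/40 min and the 65 °C/5 min pair, and below for H3K4me2.

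The 28 periportal fresh frozen peaks were all met in each long list except that of 50 °C/5 min, where 13 were. Of the 21 pericentral peaks, 18 and 17 were met in the pair, 19 in each list of 40 min and 10 at 50 °C/5 min. Cyp2e1 had all 8 of its peaks met in those 4 lists. In the pair and both lists of 40 min, the unmet peaks were the lone 306 bp peak of Glul and up to 3 small peaks of Cyp1a2, all with values under 10. At 50 °C/5 min this Glul peak was met, and unmet pericentral peaks reached a value of 17.1, at Cyp1a2. Across the 5 long lists, 22 of the 49 peaks were met in all, or 44.9%, against 41.1% of all fresh frozen peaks. One was met in none, or 2.04%, against 16.6%. Another 23, or 46.9%, were met in 4 lists, where the whole list had 20.8%.

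Weak fresh frozen peaks were met in the windows more often than over the whole list in the pair and in both lists of 40 min, and not clearly so at 50 °C/5 min. Of 9 window peaks with a value under 5, 8 were met in each of the pair, where the shares over all such peaks were 45.8% and 40.7%. The lists of 50 °C/40 min and 65 °C/40 min also met 8 of the 9, against 44.2% and 41.8%. The interval of this 88.9% was 56.5 to 98.0. Of 22 with a value of at least 10, all were met in the pair and in both lists of 40 min, against 88.0% to 90.7% over all such peaks. Fewer were met at 50 °C/5 min, 16 of these 22 and 2 of the 9. These shares of 72.7% (51.8 to 86.8) and 22.2% (6.32 to 54.7) stood beside 64.0% and 18.1% over all such peaks, which lie inside their intervals. Peaks over 2 kb were more frequent in the windows than over the lists in the pair and in both lists of 40 min, as given above. This was not so at 50 °C/5 min. The part of peak width in the share of weak peaks met was not tested.

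**Figure D4:**
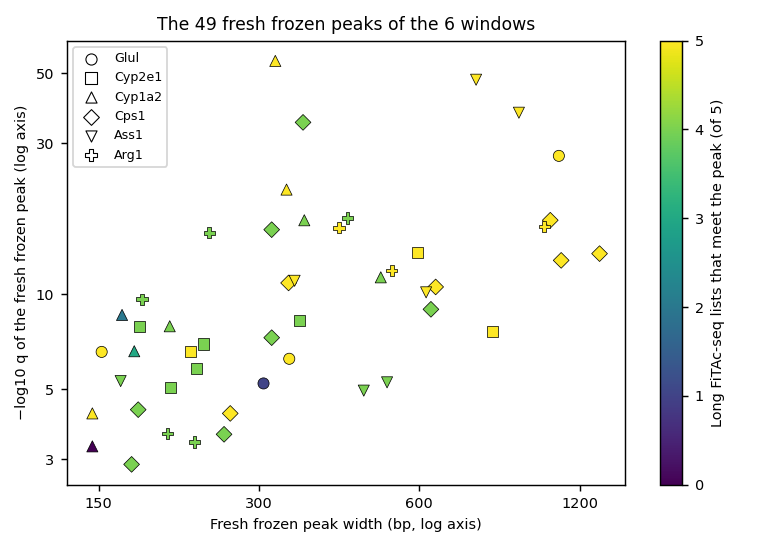
The 49 fresh frozen window peaks by width in bp (x) and −log10 q-value (y), both on log axes, with a marker for each locus and colour for the number of the 5 long FiTAc-seq lists that met the peak. Peaks met by fewer than 4 lists have values under 10 and lie at Cyp1a2 and Glul.

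In the other direction, a larger share of window peaks than of whole-list peaks had no fresh frozen partner in 4 of the long FiTAc-seq lists, and a smaller share at 50 °C/5 min. In the pair, 24 of 74 and 23 of 61 window peaks met a fresh frozen peak, or 32.4% and 37.7%, against 44.3% and 46.4% over the lists. At 40 min, 34.5% (25.3 to 44.9) at 50 °C and 30.4% (22.0 to 40.5) at 65 °C did, against 49.4% and 49.6%. At 50 °C/5 min 26 of 36 did, or 72.2% (56.0 to 84.2), against 55.7%. The peaks with a partner were wider, with medians of 1732.5 and 1706 bp in the pair against 305.5 and 263.5 bp without. They met a mean of 2 and 2.22 fresh frozen peaks each, and such a peak counts once in these shares. The part of this in the lower shares was not tested.

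Of the window peaks of the first 65 °C/5 min library, 37 of 74, or 50%, met a peak of the second library and no fresh frozen peak, where the list as a whole had 28.6%. A fresh frozen peak lay within 5 kb of 36 of them, at a median distance of 1156 bp. The matching share over the whole list was not counted. The windows hold clusters of fresh frozen peaks, so this closeness is not read as particular to these loci. Of the 37, the highest at Cyp2e1 was chr7:147946062-147946420, with a value of 24.9. At Arg1 it was chr10:24647734-24648319 (16.5), at Cyp1a2 chr9:57516329-57517525 (16.1), at Ass1 chr2:31320403-31321301 (15.9987) and at Cps1 chr1:67168519-67168913 (12.2). Glul had none. The peaks at Cyp1a2 and Ass1 were met by all 3 other long FiTAc-seq lists, and those at Cyp2e1, Arg1 and Cps1 by 2. One of the 37, chr10:24634346-24634691 at Arg1, lay 7838 bp from the nearest fresh frozen peak and was met by none of the 3 other long FiTAc-seq lists.

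The libraries of the pair met one another in most window peaks, in one direction more often than over the whole list and in the other about as often. Of the first library's 74 window peaks, 79.7% (69.2 to 87.3) met a peak of the second, against 67.5% over the list. Of the second's 61, 77.0% (65.1 to 85.8) met a peak of the first, against 77.1%. All 6 loci had similar covered lengths in both libraries, and the largest SD was 0.615 kb, at Ass1.

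Longer sonication at 50 °C and higher temperature at 5 min both went with more coverage, by far more kb at 5 of the loci than at Glul. At 50 °C/40 min exceeded 5 min by 45.1 kb over the 6 windows, set against a spread of 0.428 kb (SD, n = 2) between the paired libraries. Each of Cyp2e1, Cyp1a2, Cps1, Ass1 and Arg1 had 6.95 to 10.8 kb more, and Glul had 0.083 kb more. The ratio of 40 to 5 min at 50 °C was 4.47 in the windows and 2.12 over the whole lists. At 5 min, 65 °C exceeded 50 °C by 51.6 kb, with 9.42 to 10.6 kb at those 5 loci and 0.980 kb at Glul. The SD of the pair at Glul was 0.0106 kb. Only 65 °C/5 min had more than 1 library, so no p-value compares conditions.

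At 65 °C, the 40 min library differed from the mean of the pair by -0.70 kb, larger than the SD of 0.428 kb but a small part of the 64.6 kb covered. As a ratio this was 0.989 in the windows and 0.821 over the whole lists. Cyp2e1, Cps1 and Ass1 were higher at 40 min, by 0.835, 0.689 and 0.782 kb. Arg1, Cyp1a2 and Glul were lower, with differences of -1.42, -0.98 and -0.60 kb, and the 40 min value lay outside the range of the pair at all 6 loci. At 40 min, 65 °C exceeded 50 °C by 5.81 kb, of which 2.36 kb were at Cyp2e1 and 1.73 kb at Arg1. This difference fell to 1.46 kb with gaps of up to 500 bp closed.

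H3K4me2 was nearly absent from the zonation loci in the deposited list. Of its 11746 peaks, 1 lay in the windows, chr9:57556871-57557056 in that of Cyp1a2, 186 bp wide with a value of 2.70 and rank 11609. This peak overlapped the site with the highest fresh frozen peak of that window, which was not assigned to a gene. It was met by H3K27Ac peaks in the fresh frozen list and in all 5 long FiTAc-seq lists. Over the whole list, 70.0% of H3K4me2 peaks met a fresh frozen peak. The shares that met a FiTAc-seq peak were 48.4% for 50 °C/5 min, 69.3% for 50 °C/40 min, 76.3% and 73.1% for the pair, and 68.2% for 65 °C/40 min. A single window peak cannot be read against these shares. Of the 49 fresh frozen window peaks, 1 met an H3K4me2 peak, or 2.04% (0.361 to 10.7), against 16.0% of all fresh frozen peaks. In the FiTAc-seq pair it was 1 of 74 and 1 of 61, or 1.35% and 1.64%, against 13.0% and 13.5%. It was 1 of 36 for 50 °C/5 min, 1 of 87 for 50 °C/40 min and 1 of 92 for 65 °C/40 min, against 14.7%, 11.8% and 11.9% over those lists. The nearest H3K4me2 peak lay 8.72 kb outside the Arg1 window, 38.9 kb from that of Ass1, 41.6 kb from Cyp2e1, 64.8 kb from Cps1 and 121 kb from Glul. With 1 H3K4me2 library, made by another protocol, mark and protocol cannot be told apart.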

How the data were processed

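The authors deposited 1 peak list per library, for which the submitters' processing notes name BWA, MACS2 and mm9. Tool versions, calling thresholds and any control are not given in the sources used here. The authors deposited a score with every peak, taken here as −log10 of a q-value since no long list goes below 2. Such scores move with depth and background. Depth is unknown, and 1 input sample was not analysed here.

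Peaks outside the autosomes, X and Y were dropped, with 1-based starts on mm9. Covered length is the part of a window under peaks, and 15 peaks that cross a window edge were counted but clipped. Peaks were shared at an overlap of at least 1 bp. Shares carry Wilson 95% intervals. Groups came from sample titles, and no test compares conditions.

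Named peaks followed a rule: the highest per list and window, the widest site, the highest fresh frozen peak in no FiTAc-seq list, and the highest peak of the pair without a fresh frozen peak. Other peaks named, such as shared sites, were chosen after their values were seen. The windows, members, bounds and lists were chosen with earlier results of these data known. A list of further zonation genes was not used here, since no mm9 annotation placed them. Alternatives were a −log10 q-value of at least 5, closing gaps of 500 bp, windows widened by 10 kb, the 30000 highest peaks, a 50% overlap and the pair with 1 of its libraries omitted. The overlap and covering steps were tested on simulated data. Tables were handled with pandas 2.3.3 and numpy 2.4.6, intervals with scipy 1.17.1 and plots with matplotlib 3.10.9, under Python 3.11.15.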

Additional observations from a re-analysis of the deposited data

Results flagged for a closer look

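The difference in covered length between 40 and 5 min of sonication had opposite signs at 50 °C and 65 °C at 3 of the 6 loci and in the sum over all 6. Over the 6 windows, 40 minus 5 min was 45.1 kb at 50 °C and -0.70 kb at 65 °C. The whole lists did the same, with ratios of 40 to 5 min of 2.12 at 50 °C and 0.821 at 65 °C, against 4.47 and 0.989 in the windows, so the change of sign is not particular to these loci. At Glul the values were 0.083 and -0.60 kb, at Cyp1a2 8.56 and -0.98 kb, and at Arg1 6.95 and -1.42 kb. The other loci had more coverage after 40 min at both temperatures, by 9.03 and 0.835 kb at Cyp2e1, 9.69 and 0.689 kb at Cps1, and 10.8 and 0.782 kb at Ass1. At Glul, Cyp1a2 and Arg1 and in the sum, the 40 min library at 65 °C lay below both libraries of 5 min. The difference between temperatures was not tested: a single library stood for each of these conditions but 65 °C/5 min. The 0.083 kb at Glul is smaller than the SD of 0.428 kb over all windows of the pair, though larger than the 0.0106 kb of that locus.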

How the results depend on the processing

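Covered lengths moved with every choice of peaks or windows, while 50 °C/40 min, 65 °C/5 min and 65 °C/40 min each exceeded 50 °C/5 min by more than 37 kb in these settings. In kb, for fresh frozen, 50 °C with 5 and 40 min, and 65 °C with 5 and 40 min, they were 18.1, 8.99, 54.7, 61.5 and 59.1 with a −log10 q-value of at least 5. They were 25.8, 15.5, 70.6, 73.0 and 72.1 with gaps closed, 27.03, 21.7, 73.8, 81.1 and 78.7 in widened windows, and 14.4, 10.95, 48.3, 57.1 and 54.2 with the 30000 highest peaks. For 40 minus 5 min at 50 °C, these 4 settings gave 45.7, 55.2, 52.1 and 37.3 kb, and for 65 °C minus 50 °C at 5 min 52.5, 57.5, 59.3 and 46.2 kb. For 40 minus 5 min at 65 °C they gave -2.43, -0.91, -2.33 and -2.95 kb, and for 65 °C minus 50 °C at 40 min 4.36, 1.46, 4.92 and 5.87 kb. The pericentral minus periportal difference in bp per kb, in the same order of conditions, was -2.39, -1.91, -11.6, 2.30 and -8.63 with the value limit and -6.40, -5.86, 13.1, 18.9 and 8.16 with gaps closed. It was -0.29, 24.8, 14.9, 22.0 and 15.5 in widened windows and -13.8, -1.56, -19.1, -11.8 and -8.43 with the 30000 highest peaks. As mean kb per locus, an alternative chosen after seeing the data, it was negative in all 5, at -1.98, -1.16, -4.41, -4.39 and -4.66 kb. The cause of these sign changes was not tested. Recovery of fresh frozen window peaks was 32.5% at 50 °C/5 min and 0% for H3K4me2 under the value limit, which left 40 fresh frozen peaks and no H3K4me2 peak. At 65 °C/5 min it was 87.5% with gaps closed and 90.8% with a 50% overlap. Leaving out either library of the pair gave 64.3 to 64.9 kb, 91.8% to 93.9%, and 3.21 to 4.70 bp per kb. The differences then ranged from -1.002 to -0.40 kb for 40 minus 5 min at 65 °C and from 51.3 to 51.9 kb for 65 °C minus 50 °C. No paired analysis was possible because only 65 °C/5 min has replicate numbers.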
